A study of Mus musculus with 12 samples.

Results

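Insulin acts on the liver through a short chain of proteins, and the transcripts of 10 of them were followed across mGULL knockdown and hGULL rescue: the receptor Insr, the adaptors Irs1 and Irs2, the PI3K regulatory subunit Pik3r1, the kinases Akt1 and Akt2, the transcription factors Foxo1 and Foxo3, the pseudokinase Trib1 and the secreted protein Igfbp1. The 10 genes were chosen by name from the 55385 features of the table, with earlier results of these data known. The unit is TPM, in which reads are divided by transcript length and scaled to a fixed total per library. All 10 averaged 1 TPM or more over the 12 mice and were tested, as were 16378 features in all. Each symbol was carried by a single feature.

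Liver RNA-Seq was done on 12 male C57BL6 wild-type mice aged 7 weeks, 4 in each of 3 groups, to ask what loss of the mouse long noncoding RNA mGULL does to hepatic gene expression and whether its human counterpart hGULL makes up for it. Ad-Ctrl mice received the control adenoviruses Lac and pAdV5. Ad-shmGULL (knockdown) mice received sh-mGULL, which carries a short hairpin RNA against mGULL, together with pAdV5. Ad-shmGULL+hGULL (rescue) mice received the knockdown virus together with one that expresses hGULL. Every mouse, controls included, thus carried adenovirus, at a total of 500000000 PFU, and livers were taken on day 7. The virus was given by injection, described as intravitreal for this experiment and as retro-orbital in the study's general methods. No group lacked virus, and whole liver was sequenced, so that fewer cells of a type and less RNA per cell cannot be told apart. The feeding state at collection is not given in the sources used here. The levels of mGULL and hGULL were not analysed here.

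In hepatocytes, insulin binds its receptor tyrosine kinase, the receptor phosphorylates the IRS adaptors, and these recruit PI3K, whose lipid product brings AKT to the membrane to be activated. AKT phosphorylates FOXO1, which then leaves the nucleus, so that FOXO targets such as the gluconeogenic genes, Igfbp1 and Irs2 fall after a meal, whereas the lipogenic program driven by SREBP-1c rises. The chain works mostly through phosphorylation, which transcript levels do not measure.

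TPM summed to 1000000 in each of the 12 mice, so depth cannot be read from the table. The 20 genes with the highest mean took 29.4% to 32.9% of all TPM in the Ad-Ctrl mice, 26.3% to 34.2% in the Ad-shmGULL mice and 24.6% to 26.6% in the Ad-shmGULL+hGULL mice, and the median log2 difference over all 16378 tested genes was 0.09 for knockdown minus control, 0.09 for rescue minus knockdown and 0.17 for rescue minus control. Small positive differences below are therefore read against that shift. Hepatocyte markers (Alb, Apoa1, Hnf4a, Cps1 and Cyp3a11) were present in all 12 livers, with summed levels of 65565 to 96285 TPM in Ad-Ctrl, 71800 to 81143 TPM in Ad-shmGULL and 59827 to 72632 TPM in Ad-shmGULL+hGULL. Differences were tested with limma on log2(TPM + 1), a scale on which the change of a low gene is understated, and a gene was called at the study's threshold (log2 difference beyond 0.5 with an unadjusted P under 0.05) or, as a second rule, at a p under 0.05 after Benjamini-Hochberg adjustment over all tested genes. With 4 mice against 4 there are 70 arrangements, so 0.0286 is the smallest p that the exact permutation test can give. The labels do not say more of how the mice were raised or housed. The limma p sets a difference of means against the spread within groups of these 12 mice, estimated partly from all tested genes. The permutation p uses only the mice of the 2 groups compared. Neither covers variation beyond these mice.

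The promoters of Irs1, Irs2 and Igfbp1 are shown because they carry, within the 250 bases before the RefSeq start site (GRCm38.p6), the letters CAAAACA of the insulin response element to which FOXO factors bind. The 250-base windows are printed 5′ to 3′ on the strand of the gene, in lower case, with CAAAACA (read on either strand, TGTTTTG on the other) and the E-box letters CACGTG in capitals. The windows are chr1:82291440-82291689 (minus strand) for Irs1, chr8:11008930-11009179 (minus strand) for Irs2 and chr11:7197537-7197786 (plus strand) for Igfbp1.
Irs1: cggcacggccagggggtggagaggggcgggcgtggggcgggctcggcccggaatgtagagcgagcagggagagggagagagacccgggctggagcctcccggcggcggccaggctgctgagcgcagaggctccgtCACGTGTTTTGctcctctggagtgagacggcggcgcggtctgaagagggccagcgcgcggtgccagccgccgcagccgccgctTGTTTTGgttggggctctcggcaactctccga
Irs2: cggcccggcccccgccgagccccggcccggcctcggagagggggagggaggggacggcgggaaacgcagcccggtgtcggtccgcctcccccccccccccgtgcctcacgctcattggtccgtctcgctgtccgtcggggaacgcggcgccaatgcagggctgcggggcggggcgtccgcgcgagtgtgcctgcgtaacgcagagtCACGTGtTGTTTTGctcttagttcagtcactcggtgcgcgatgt
Igfbp1: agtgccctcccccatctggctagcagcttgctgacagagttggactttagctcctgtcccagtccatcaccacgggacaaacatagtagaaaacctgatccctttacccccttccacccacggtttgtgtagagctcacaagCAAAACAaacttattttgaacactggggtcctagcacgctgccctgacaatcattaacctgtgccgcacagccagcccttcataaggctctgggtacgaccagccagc

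Both adaptor promoters hold CAAAACA on the reverse strand and an E-box close to it. Counted back from the start site, Irs1 has CAAAACA at -111 to -105 and again at -32 to -26, with the E-box at -115 to -110 overlapping the first of these. Irs2 has CAAAACA at -37 to -31 and its E-box at -44 to -39. Igfbp1 has CAAAACA on the forward strand at -108 to -102. Promoter windows were matched for 8 of the 10 genes, at 13 start sites (Insr and Trib1 were not matched), and CAAAACA was found in these 3 genes only. Of all 32817 promoter windows of the same length, 5.56% hold CAAAACA and 6.02% hold CACGTG on either strand. The other motifs searched, both strands, were GTAAACA (a FOXO core, in 3.16% of all windows and, among the members, in Akt1), TGACGTCA (the full cAMP response element, 1.55%, in no member), TGACG (the short form of that element, 17.7%, in Irs1, Pik3r1, Akt2 and Foxo3; in Irs1 it overlaps the E-box) and TCACNCCAC (a sterol element, 1.05%, in no member). These matches are descriptions of the letters and not binding sites.

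Mean levels in Ad-Ctrl livers ran from 161 TPM for Igfbp1 to 16.1 TPM for Irs2. Insr followed Igfbp1 at 72.5 TPM, and then came Foxo3 (56.8 TPM), Akt1 (51.1 TPM), Pik3r1 (46.5 TPM) and Foxo1 (46.3 TPM), whose ranges over 4 mice overlapped from each gene to the next. Trib1 (37.4 TPM) and Akt2 (28.2 TPM) lay apart from their neighbors, and Irs1 (17.0 TPM) overlapped with Irs2. Irs2 came last, next to Irs1, in all 3 groups, but whether their ranges overlapped differed by group, as did the place of Trib1 against Akt2. In Ad-shmGULL livers Irs1 (23.1 TPM) and Irs2 (12.1 TPM) no longer overlapped, and Trib1 (30.1 TPM) overlapped with Akt2 (30.4 TPM). In Ad-shmGULL+hGULL livers Trib1 (37.1 TPM) was again apart from Akt2 (31.4 TPM), whereas Irs1 (24.9 TPM) and Irs2 (15.2 TPM) were still apart.

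**Figure D1:**
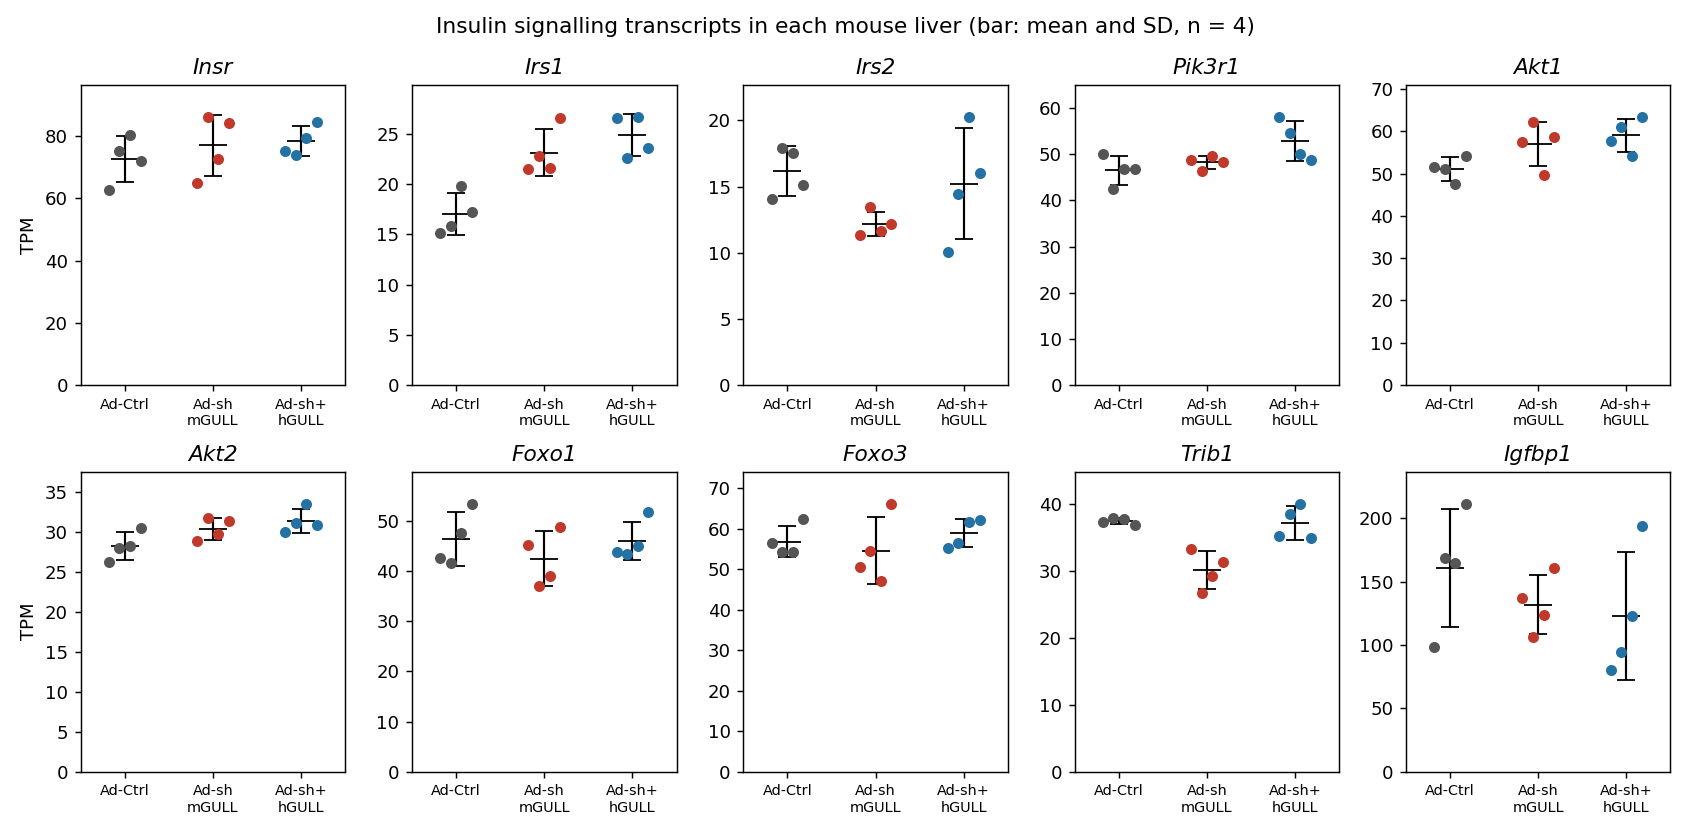
Level in TPM (vertical axis, from 0) of each of the 10 genes in each mouse of the 3 groups, with the mean and SD over 4 mice as a horizontal line and error bars. Irs1 lies higher in both knockdown and rescue livers than in every Ad-Ctrl liver, Irs2 and Trib1 lie lower in all 4 Ad-shmGULL livers than in every Ad-Ctrl liver, and Igfbp1 spreads widely within each group.

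The first comparison, knockdown minus control, asks which of these transcripts moved when mGULL was reduced. Irs1 rose, Irs2 and Trib1 lay lower in every knockdown mouse than in every control mouse without passing the adjusted threshold, and the receptor, Pik3r1, both Akt genes, both Foxo genes and Igfbp1 overlapped between the groups. At an adjusted p under 0.05, 1 of 10 members was called (limma; 3.23% of all tested genes were), at the study's threshold 0 of 10 (7.65% of all tested genes; 3 members had an unadjusted p under 0.05, as did 20.2% of all), and 3 of 10 members did not overlap between the groups (8.99% of all). The members split evenly in direction, 5 higher and 5 lower, with a median log2 difference of -0.01 against 0.09 for all tested genes, 65.5% of which were higher.

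Irs1 (chr1:82233105-82291439, GRCm38.p6) encodes the adaptor that, with IRS2, carries the signal from the insulin receptor to PI3K. Its level was 15.2, 15.8, 19.8 and 17.2 TPM in Ad-Ctrl mice 1 to 4, 21.5, 22.8, 21.6 and 26.6 TPM in the Ad-shmGULL mice, and 26.6, 22.6, 26.7 and 23.6 TPM in the Ad-shmGULL+hGULL mice. All 8 mice that received the knockdown virus were above all 4 control mice, and the knockdown and rescue groups overlapped. Knockdown minus control was 0.43 ± 0.10 on the log2 scale (SE, limma adjusted p = 0.0448, 95% interval 0.20 to 0.65, exact two-sided permutation p = 0.0286), a 1.34-fold higher value of TPM + 1. Beyond the median of all genes the difference was 0.34. The adjusted call lay near its threshold: it was lost after median-of-ratios scaling (0.32, adjusted p = 0.129) and after quantile normalization (0.35, adjusted p = 0.0920), where the groups also overlapped, and without Ad-Ctrl mouse 1, 2 or 4, Ad-shmGULL mouse 1, 2 or 4 or any rescue mouse, with limma adjusted p between 0.0510 and 0.122. The E-box and both CAAAACA matches printed above lie in the promoter of this gene. Endothelial markers moved in the same direction as Irs1, with the mean of all 5 (Stab2, Clec4g, Pecam1, Kdr and Lyve1) higher than control in both knockdown and rescue. Of all tested genes 65.5% and 81.9% were higher in these 2 comparisons. By limma 1 of 5 had an adjusted p under 0.05 after knockdown (3.23% of all tested genes) and 0 of 5 for rescue minus control (2.15% of all). None of the 5 was at 0 in any mouse. Their summed levels were 85.0 to 149 TPM in Ad-Ctrl, 141 to 185 TPM in Ad-shmGULL and 136 to 166 TPM in Ad-shmGULL+hGULL. Stellate cell markers (5 genes, all above 0) summed to 41.9 to 85.2, 66.1 to 84.9 and 55.2 to 72.1 TPM. Of the 6 Kupffer cell and macrophage markers 3 were higher and 3 lower in both knockdown minus control and rescue minus control. The 2 neutrophil markers tested (S100a8 and S100a9) were higher after knockdown and lower for rescue minus control. The part of any of these cell types in the Irs1 difference was not tested.

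Irs2 (chr8:10984681-11008929), the other adaptor and itself a FOXO target that falls after feeding, went the opposite way. The Ad-Ctrl mice had 14.0, 17.9, 17.5 and 15.1 TPM, the Ad-shmGULL mice 11.3, 13.4, 11.7 and 12.2 TPM, and the Ad-shmGULL+hGULL mice 10.1, 14.4, 20.2 and 16.1 TPM. Each knockdown mouse was lower than every control mouse, while the rescue mice ran from below every knockdown mouse to above every control mouse. Knockdown minus control was -0.38 ± 0.16 (SE, limma adjusted p = 0.213, 95% interval -0.73 to -0.02, exact two-sided permutation p = 0.0286), so Irs2 did not pass the adjusted threshold. The groups stayed apart after median-of-ratios scaling and after quantile normalization.

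The ratio of the 2 adaptors within a liver does not change when a library is scaled by a single factor, though quantile normalization can change it. The ratio of TPM is given as a description, with no test. Irs2 divided by Irs1 was 0.925, 1.13, 0.884 and 0.878 in the Ad-Ctrl mice, 0.526, 0.590, 0.539 and 0.457 in the Ad-shmGULL mice and 0.379, 0.638, 0.759 and 0.680 in the Ad-shmGULL+hGULL mice. The means were 0.955 ± 0.121, 0.528 ± 0.0547 and 0.614 ± 0.165 (SD, n = 4 mice each). The adaptor transcripts were thus near parity in control livers, where Irs1 exceeded Irs2 in every mouse but mouse 2. Irs1 exceeded Irs2 by more in every liver that received the knockdown virus, rescue included. The rescue mice overlapped the knockdown mice and lay below every control mouse. Trib1 divided by Irs1, a pair of unrelated genes, also set the control mice apart, at 1.90 to 2.46 in Ad-Ctrl, 1.17 to 1.54 in Ad-shmGULL and 1.32 to 1.70 in Ad-shmGULL+hGULL. The pairs of related kinases and transcription factors overlapped. Akt1 divided by Akt2 was 1.81 ± 0.117, 1.87 ± 0.144 and 1.89 ± 0.187 (SD, n = 4 mice each, in the order control, knockdown, rescue), and Foxo3 divided by Foxo1 was 1.23 ± 0.0928, 1.29 ± 0.158 and 1.28 ± 0.0699 (SD, n = 4 mice each), with overlapping ranges in all 3 groups.

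**Figure D2:**
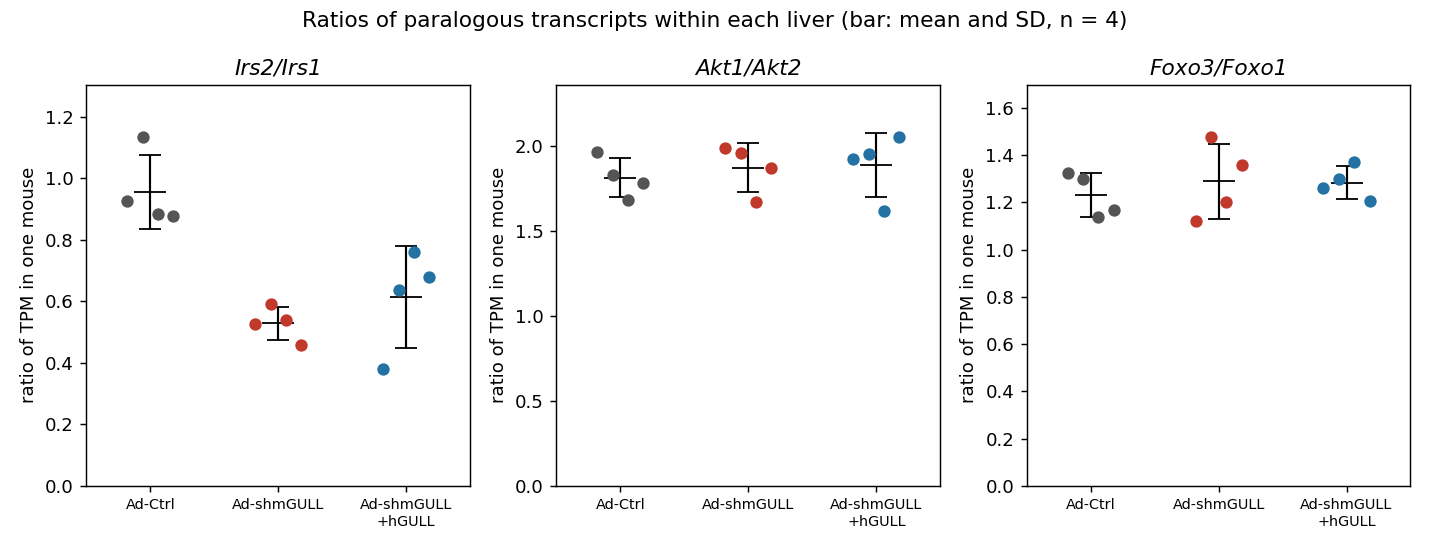
Ratio of TPM of 2 related transcripts within one mouse (vertical axes, no unit, from 0) for Irs2/Irs1, Akt1/Akt2 and Foxo3/Foxo1 in the 3 groups, with the mean and SD over 4 mice. The 4 Ad-Ctrl mice have Irs2/Irs1 from 0.878 to 1.13 and the other 8 mice from 0.379 to 0.759, while Akt1/Akt2 and Foxo3/Foxo1 overlap across groups.

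Trib1 (chr15:59648654-59657099), a pseudokinase that brings C/EBPα to the COP1 ubiquitin ligase and whose family is known for restraining AKT, was the member with the least spread among the controls. Its level was 37.3, 37.9, 37.7 and 36.8 TPM in the Ad-Ctrl mice, 33.2, 26.7, 29.2 and 31.3 TPM in the Ad-shmGULL mice, and 35.2, 38.5, 40.0 and 34.8 TPM in the Ad-shmGULL+hGULL mice. The knockdown mice were below all mice of both other groups, and the rescue mice spanned the controls. Knockdown minus control was -0.31 ± 0.08 (SE, limma adjusted p = 0.0531, 95% interval -0.48 to -0.14, exact two-sided permutation p = 0.0286), just short of the adjusted threshold. The adjusted p was 0.0411 when the filter was raised to 5 TPM and 0.0357 without Ad-shmGULL mouse 1, and 0.0531 to 0.166 under the other 20 alternatives. The Ad-shmGULL and Ad-Ctrl mice stayed apart for Trib1 after median-of-ratios scaling and after quantile normalization. Interferon-response genes (Ifit1, Ifit3, Isg15, Oasl2, Irf7, Rsad2, Usp18 and Mx1), which every liver expressed, also lay lower after knockdown. Their summed level was 301 to 547 TPM in Ad-Ctrl, 155 to 289 TPM in Ad-shmGULL and 290.2 to 387 TPM in Ad-shmGULL+hGULL. At the study's threshold 8 of 8 were called downward (2.30% of all tested genes were). By limma 3 of 8 were lower at an adjusted p under 0.05, as were 130 of all 16378 tested genes. The summed level moved between groups in the same order as Trib1 and Irs2, and its part in either was not tested.

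Igfbp1 (chr11:7197787-7202546), the liver-made IGF-binding protein whose transcript insulin represses and FOXO1 activates, varied more within groups than between them. The Ad-Ctrl mice had 98.8, 169, 165 and 212 TPM, the Ad-shmGULL mice 137, 106, 123 and 161 TPM, and the Ad-shmGULL+hGULL mice 80.0, 94.6, 123 and 194 TPM. A single control mouse lay below and the other 3 lay above the whole knockdown range. Knockdown minus control was -0.25 ± 0.27 (SE, limma adjusted p = 0.658, exact two-sided permutation p = 0.400), with a 95% interval of -0.84 to 0.34.

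The receptor and the kinases showed small differences. Insr (chr8:3150922-3279649) had 62.7, 75.1, 80.3 and 72.0 TPM in the Ad-Ctrl mice, 65.0, 86.1, 72.7 and 84.2 TPM in the Ad-shmGULL mice and 75.3, 73.8, 79.6 and 84.6 TPM in the Ad-shmGULL+hGULL mice. Knockdown minus control was 0.08 ± 0.10 for Insr (SE, limma adjusted p = 0.712, 95% interval -0.14 to 0.31), within the median shift of all genes. Pik3r1 (chr13:101680761-101768217), the p85α subunit that docks PI3K onto the IRS proteins, had 42.4 to 50.1 TPM in Ad-Ctrl, 46.3 to 49.5 TPM in Ad-shmGULL and 48.7 to 58.0 TPM in Ad-shmGULL+hGULL, and a knockdown difference of 0.05 ± 0.08 (SE, limma adjusted p = 0.752). All 3 ranges overlapped for each of these 2 genes.

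Akt2 (chr7:27591552-27640826), the AKT isoform that carries most of the metabolic response to insulin in liver, was at 26.2 to 30.4 TPM in Ad-Ctrl, 28.8 to 31.7 TPM in Ad-shmGULL and 30.0 to 33.5 TPM in Ad-shmGULL+hGULL. Its knockdown difference was 0.11 ± 0.07 (SE, limma adjusted p = 0.437, 95% interval -0.05 to 0.26). Akt1 (chr12:112653821-112674884), the more widely used isoform, was at 47.5 to 54.2, 49.7 to 62.2 and 54.3 to 63.4 TPM, with a knockdown difference of 0.15 ± 0.08 (SE, limma adjusted p = 0.330, 95% interval -0.03 to 0.33). Both kinases thus had intervals that span 0 and end at or below 0.33 on the log2 scale.

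Foxo1 (chr3:52268337-52350109), the main FOXO factor of gluconeogenesis, had 42.6, 41.6, 47.5 and 53.3 TPM in the Ad-Ctrl mice, 45.1, 36.9, 39.1 and 48.7 TPM in the Ad-shmGULL mice and 43.8, 43.4, 45.0 and 51.6 TPM in the Ad-shmGULL+hGULL mice. Its knockdown difference was -0.12 ± 0.11 (SE, limma adjusted p = 0.566, 95% interval -0.36 to 0.11). Foxo3 (chr10:42181845-42276695), its relative, ran from 54.1 to 62.3 TPM in Ad-Ctrl, 47.0 to 66.1 TPM in Ad-shmGULL and 55.3 to 62.2 TPM in Ad-shmGULL+hGULL, with a knockdown difference of -0.07 ± 0.10 (SE, limma adjusted p = 0.769). The groups overlapped for both factors.

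**Figure D3:**
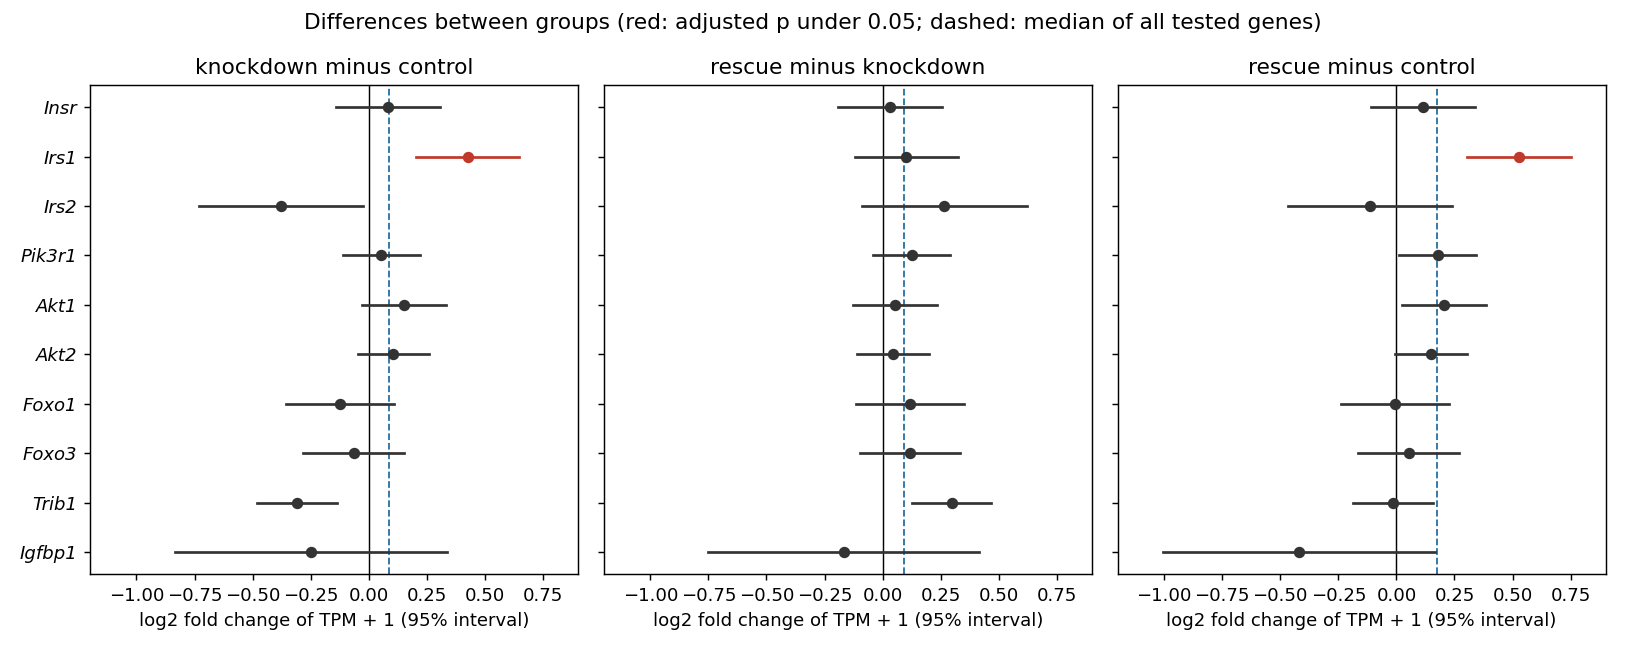
Log2 difference of TPM + 1 (horizontal axis) with its 95% interval for the 10 genes in each of the 3 comparisons, with the solid line at 0 and the dashed line at the median of all tested genes. Irs1 has an adjusted p under 0.05 (red) in knockdown minus control (0.43) and rescue minus control (0.53), and none of the 10 genes has one in rescue minus knockdown.

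The second comparison, rescue minus knockdown, asks which transcripts moved back when hGULL was expressed. It shares its Ad-shmGULL mice with the first comparison, so the values of the 2 comparisons are set side by side only. At the study's threshold 0 of 10 members were called (limma; 3.0% of all tested genes), at an adjusted p under 0.05 0 of 10 (0% of all tested genes, the smallest adjusted p of any gene being 0.117), 1 member had an unadjusted p under 0.05 (10.7% of all), and 1 of 10 did not overlap between groups (6.38% of all). The differences of 9 members were above 0, with a median of 0.11 against 0.09 for all tested genes, 70.9% of which were above 0.

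The member that did not overlap was Trib1, at 34.8 to 40.0 TPM in the rescue mice against 26.7 to 33.2 TPM in the knockdown mice. Its difference was 0.30 ± 0.08 (SE, limma adjusted p = 0.318, 95% interval 0.13 to 0.47, exact two-sided permutation p = 0.0286), and the groups overlapped after each of the 3 other scalings (median-of-ratios, quantile, and rescaling without the 20 highest genes). For Irs2 the difference was 0.27 ± 0.16 (SE, limma adjusted p = 0.565), with rescue mouse 1 at 10.1 TPM below and the other 3 rescue mice above all knockdown mice. Irs1 differed by 0.10 ± 0.10 (SE, limma adjusted p = 0.715, 95% interval -0.12 to 0.32), in the same direction as its change after knockdown and not back toward control. Igfbp1 differed by -0.17 ± 0.27 (SE, limma adjusted p = 0.828). For the other 6 genes the difference ran from 0.03 (Insr) to 0.12 (Pik3r1), close to the median of all genes.

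The third comparison, rescue minus control, asks what was still different with both viruses present, and it shares mice with each of the other comparisons. At the study's threshold 1 of 10 members was called (7.49% of all tested genes), at an adjusted p under 0.05 1 of 10 (2.15% of all), 3 had an unadjusted p under 0.05 (25.3% of all), and 2 of 10 did not overlap between groups (22.3% of all). Both calls were Irs1, which rose by 0.53 ± 0.10 on the log2 scale (SE, limma adjusted p = 0.0390, 95% interval 0.30 to 0.75, exact two-sided permutation p = 0.0286), or 0.35 beyond the median of all genes. After median-of-ratios scaling the value was 0.33 (adjusted p = 0.222) and after quantile normalization 0.35 (adjusted p = 0.187), with overlapping groups under both, and the adjusted call was lost without Ad-Ctrl mouse 2, 3 or 4, Ad-shmGULL mouse 4 or any rescue mouse, with limma adjusted p between 0.0532 and 0.142. The study's threshold was missed for Irs1 without Ad-Ctrl mouse 1 or 2 or rescue mouse 1 or 3 and with array weights, where the difference was 0.48 to 0.50, and after the 3 other scalings (0.33 to 0.44).

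The other member whose groups were apart was Akt1, at 54.3 to 63.4 TPM in rescue and 47.5 to 54.2 TPM in control (0.21 ± 0.08, SE, limma adjusted p = 0.153, exact two-sided permutation p = 0.0286). After median-of-ratios scaling its difference was 0.0040, and the groups overlapped under each of the 3 other scalings. Pik3r1 and Akt2 differed by 0.18 ± 0.08 and 0.15 ± 0.07 (SE, limma adjusted p = 0.171 and 0.207), near the median of all genes at 0.17. Igfbp1 was lower by value, -0.42 ± 0.27 (SE, limma adjusted p = 0.342), and passed the study's threshold under 3 of 22 alternatives, without Ad-Ctrl mouse 1 (-0.63), without rescue mouse 4 (-0.66) and with array weights (-0.61). Trib1 (-0.01 ± 0.08), Foxo1 (-0.01 ± 0.11), Foxo3 (0.05 ± 0.10), Irs2 (-0.11 ± 0.16) and Insr (0.11 ± 0.10, all SE) had intervals that span 0.

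A wider list of 70 pathway genes in 9 roles was also read, made of every member but Igfbp1 and 61 other genes. Of the 70, 66 were tested (Insrr, Irs4, Foxo6 and Ceacam2 were below the filter). After knockdown 52 were higher and 14 lower (65.5% of all tested genes were higher), with a median log2 difference of 0.08 against 0.09 for all tested genes. The study's threshold was passed by 1, downward (2.30% of all tested genes), and the adjusted threshold by 1, Irs1 (3.23% of all, in either direction). For rescue minus control 59 of 66 were higher (81.9% of all tested genes were), with a median of 0.16 against 0.17 for all tested genes, and 5 passed each threshold upward (6.84% of all tested genes at the study's threshold and 2.12% at the adjusted one). For rescue minus knockdown 54 of 66 were higher (70.9% of all tested genes were), and 33 lay above the median of all tested genes. The study's threshold was passed by 1, Socs1, upward (by 492 of all 16378 tested genes in either direction). By limma 0 passed the adjusted threshold (0% of all tested genes), and 5 had an unadjusted p under 0.05 (10.7% of all). The directions depended on the scaling. After median-of-ratios scaling 30, 35 and 28 of 66 were higher after knockdown, for rescue minus knockdown and for rescue minus control. The median of all tested genes was then -0.01, 0.01 and -0.01, and 32, 33 and 29 of 66 lay above it. For rescue minus control 0 of 66 passed either threshold by limma (9 had an unadjusted p under 0.05). Of all 16378 tested genes 721 passed the study's threshold there and 11 the adjusted one. After knockdown Mtor (0.29, limma adjusted p = 0.0486) and Mapk3 (0.35, limma adjusted p = 0.0494) took the place of Irs1 at the adjusted threshold. Of all 16378 tested genes 683 passed it under that scaling.

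By role, knockdown minus control had no call at an adjusted p under 0.05 other than Irs1. The 2 receptors tested (Insr and Igf1r) had a median difference of 0.15, the 7 adaptors 0.04, the 7 PI3K subunits 0.08, the 8 genes for AKT and its activating kinases 0.13, the 10 AKT substrates 0.07, the 6 genes of the mTORC1 arm 0.04, the 10 genes of the RAS-MAPK arm 0.22 and the 2 insulin clearance genes 0.05. Among the 14 inhibitors of the pathway, which include Ptpn1 and Grb14 beside Trib1, the median was 0.05. Socs1, a feedback inhibitor that cytokines such as interferons induce, passed the study's threshold, at 4.83, 5.41, 5.14 and 2.91 TPM in the Ad-Ctrl mice, 1.56, 2.58, 4.89 and 2.05 TPM in the Ad-shmGULL mice and 5.01, 4.19, 5.64 and 3.84 TPM in the Ad-shmGULL+hGULL mice. Socs1 fell by 0.61 ± 0.24 after knockdown (SE, limma adjusted p = 0.177) and rose by 0.65 ± 0.24 from knockdown to rescue (SE, limma adjusted p = 0.404), and its groups overlapped in both comparisons. The interferon-response genes moved in the same directions, and their part in the Socs1 difference was not tested.

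For rescue minus control, the pathway genes past a threshold other than Irs1 were Mlst8, a subunit of both mTOR complexes (0.62 ± 0.14, adjusted p = 0.0431), Inppl1, which encodes the lipid phosphatase SHIP2 (0.51 ± 0.12, adjusted p = 0.0497), Gsk3a, a kinase that AKT inhibits (0.50 ± 0.11, adjusted p = 0.0441), Tsc2, the AKT-inhibited brake on mTORC1 (0.30 ± 0.07, adjusted p = 0.0478) and Mapk3, the kinase ERK1 (0.57 ± 0.14, adjusted p = 0.0504; limma with SE throughout). Their levels lay apart in all 5, as for Gsk3a with 46.3 to 61.5 TPM in Ad-Ctrl and 70.1 to 80.9 TPM in Ad-shmGULL+hGULL. Of all tested genes 22.3% did not overlap in this comparison. The 5 were named for passing a threshold in it, so their separation adds no support. None of the 5 passed either threshold after median-of-ratios scaling. Activating and inhibiting genes were both among them.

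**Figure D4:**
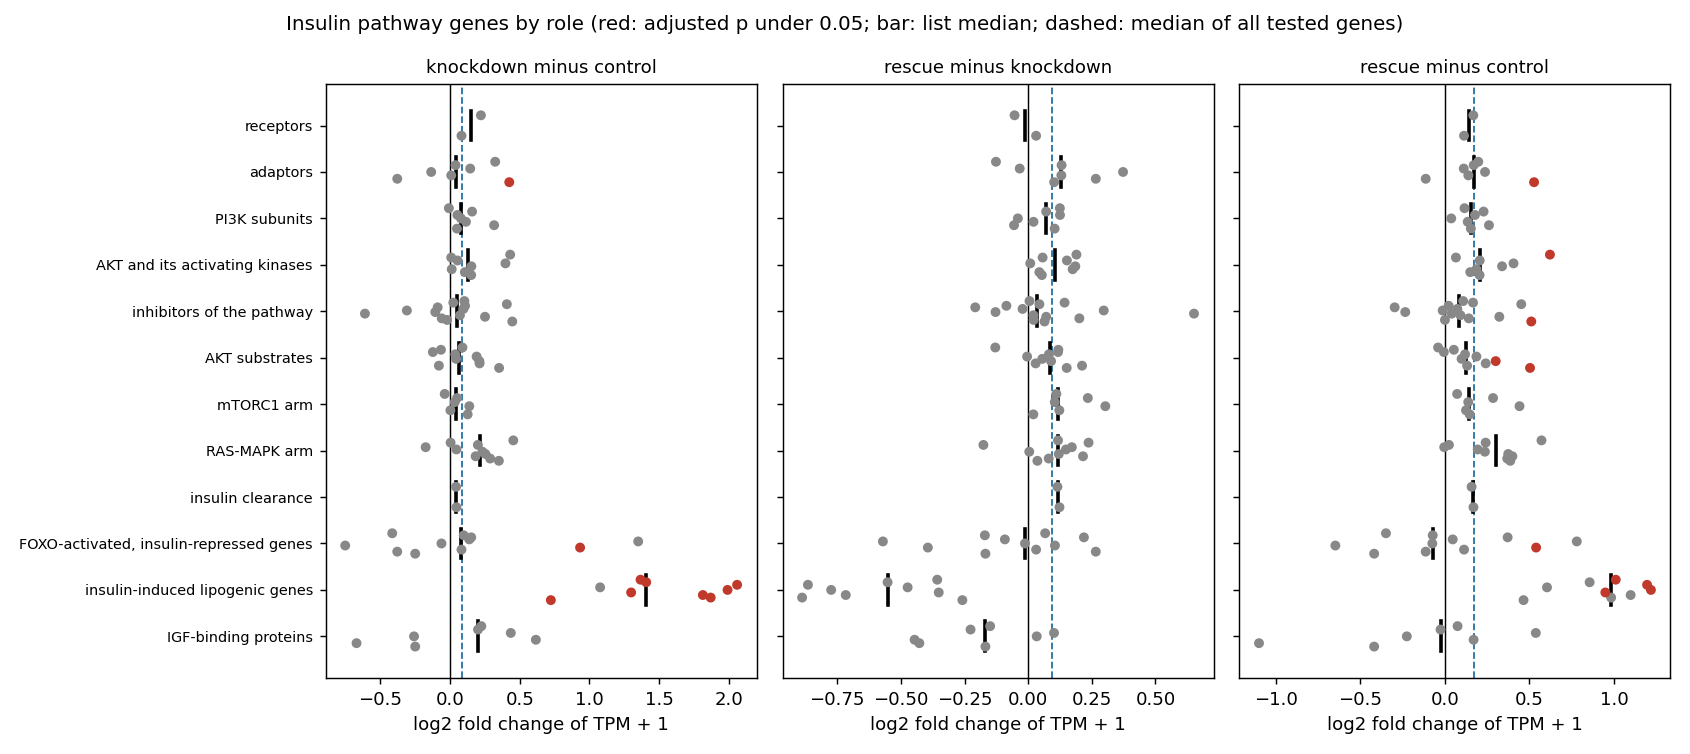
Log2 difference of TPM + 1 (horizontal axis) of each tested gene, in rows by role, for the 3 comparisons, with a short bar at the median of each row and a dashed line at the median of all tested genes. The signaling rows sit around the dashed line, while the insulin-induced lipogenic genes have a median of 1.41 after knockdown, -0.55 for rescue minus knockdown and 0.98 for rescue minus control.

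Of the genes that the pathway controls, the lipogenic ones rose after knockdown. All 9 insulin-induced lipogenic genes passed the study's threshold upward after knockdown (5.35% of all tested genes did), with a median log2 difference of 1.41. By limma 8 of 9 had an adjusted p under 0.05 (3.23% of all tested genes did, in either direction). Srebf1, the gene of the lipogenic factor SREBP-1, rose from 78.9 to 110 TPM in Ad-Ctrl to 138 to 177 TPM in Ad-shmGULL (0.72 ± 0.16, SE, limma adjusted p = 0.0373). Pklr, the liver pyruvate kinase, rose from 134 to 197 TPM to 327 to 531 TPM (1.37 ± 0.16, SE, limma adjusted p = 0.00606). The other 7 differed by 2.06 (Thrsp), 1.99 (Elovl6), 1.87 (Fasn), 1.81 (Acly), 1.41 (Pnpla3), 1.30 (Acaca) and 1.08 (Scd1, the exception at limma adjusted p = 0.0679) on the log2 scale. The call of Pklr held under all 22 alternatives and that of Srebf1 under 10 of 22. For rescue minus knockdown 4 of the 9 passed the study's threshold downward (0.672% of all tested genes did) and 0 of 9 had an adjusted p under 0.05 by limma, with 9 of 9 below 0 and a median of -0.55. For rescue minus control 7 of the 9 passed the study's threshold upward (6.84% of all tested genes did) and 4 the adjusted threshold (2.12% of all). After median-of-ratios scaling 7 again passed the study's threshold, and 0 of 9 the adjusted one.

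The genes that FOXO factors activate and insulin represses did not move as a group. Of 11, which include Igfbp1, Irs2 and Insr, 6 were higher and 5 lower after knockdown, with a median of 0.08 against 0.09 for all tested genes, and after median-of-ratios scaling 4 were higher. G6pc, the last enzyme of glucose production, rose from 531, 469, 454 and 567 TPM in the Ad-Ctrl mice to 1180, 943, 821 and 937 TPM in the Ad-shmGULL mice, and was at 668, 833, 727 and 710 TPM in the Ad-shmGULL+hGULL mice. Every knockdown and every rescue mouse was above every control mouse for G6pc, with knockdown minus control at 0.93 ± 0.12 (SE, limma adjusted p = 0.00606), a call that held under all 22 alternatives. Rescue minus control was 0.54 ± 0.12 (SE, limma adjusted p = 0.0441), and 0.33 after median-of-ratios scaling (adjusted p = 0.305). Pck1, which encodes the gluconeogenic enzyme PEPCK, lay on the other side, at 2843 to 4505 TPM in Ad-Ctrl and 1630 to 3216 TPM in Ad-shmGULL (-0.75 ± 0.23, SE, limma adjusted p = 0.0950), past the study's threshold only. In Ad-shmGULL+hGULL Pck1 was at 1717 to 3049 TPM. Its means were 3917 TPM in Ad-Ctrl, 2355 TPM in Ad-shmGULL and 2520 TPM in Ad-shmGULL+hGULL. Pdk4, the kinase that restrains pyruvate oxidation, was at 3.02 to 9.10 TPM in Ad-Ctrl and 9.10 to 35.2 TPM in Ad-shmGULL (1.35 ± 0.41, SE, limma adjusted p = 0.0884), also past the study's threshold only. In Ad-shmGULL+hGULL Pdk4 was at 8.37 to 19.1 TPM, between the other groups by mean. The other 8 genes of the list, Irs2 and Igfbp1 among them, passed neither threshold after knockdown.

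Among the 7 IGF-binding protein genes, Igfbp1 and its relatives moved in different directions after knockdown, with 4 higher and 3 lower. Igfbp3, the main circulating carrier of IGF-1, was at 10.1, 11.1, 16.4 and 17.2 TPM in the Ad-Ctrl mice and 22.3, 18.1, 19.4 and 24.8 TPM in the Ad-shmGULL mice (0.62 ± 0.17, SE, limma adjusted p = 0.0617), with all knockdown mice above all control mice, and at 13.2 to 17.3 TPM in the rescue mice. Igfbp3 is made chiefly by nonparenchymal liver cells. The endothelial markers given above moved with it between control and knockdown. In the rescue mice these markers summed to 136 to 166 TPM, against 141 to 185 TPM in the knockdown mice. Their part in the Igfbp3 differences was not tested. Igfbp2 (-1.10 ± 0.46, adjusted p = 0.164) and Igfbp5 (0.54 ± 0.17, adjusted p = 0.0870; limma with SE) passed the study's threshold for rescue minus control, both with overlapping groups.

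For Igfbp1 and Irs2, members with wide spread among the rescue mice, the 5 genes whose log2(TPM + 1) had the highest Pearson r over the 12 mice are given as a description, the libraries sharing one experiment and its groups. For Igfbp1 these were Qsox1 (0.871), Il6ra (0.869), Ahcy (0.856), Map3k6 (0.832) and Fbxo31 (0.826). For Irs2 they were Gm34667 (0.819), Rapgef4 (0.800), Fgfr1 (0.796), Gm25635 (0.793) and 5330406M23Rik (0.793). With group means removed the values were 0.809 to 0.857 for the genes listed for Igfbp1 and 0.663 to 0.809 for those listed for Irs2, over the same 12 mice.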

How the data were processed

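RNA-Seq of mouse liver was deposited as 1 table of TPM for 12 mice. The authors made strand-specific libraries from whole liver RNA, and their processing notes name fastp 0.23.2, FastQC 0.11.8, HISAT2 2.2.1.0, featureCounts (Subread 2.0) and GRCm38.p6; the annotation was GENCODE VM24. The deposited TPM sum to a fixed total, so depth and its precision are unknown and only the spread between mice gives an error. Whether counting used strand, and how shared reads were assigned, is not given in the sources used here. All 12 columns matched a label, 0 were left out, and 24575 features were at 0 throughout.

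Groups came from the labels. log2(TPM + 1) of the 16378 features with a mean of at least 1 TPM was fitted with limma 3.58.1 (R 4.3.3), 1 model over 3 groups, with a mean-variance trend and no covariate. Single members also had an exact two-sided permutation test. The members and lists were chosen with earlier results of these data known, so no p is adjusted over a list. A gene of the pathway list and a gene of the interferon list are not reported here and enter no list value. Named were every member, genes of the pathway and target lists past either threshold in a comparison, and the 5 genes most correlated with Igfbp1 and with Irs2. The script was tested on simulated data. Alternatives were no filter or a higher one (5 TPM), a pseudocount of 0.1, 3 other scalings (median-of-ratios, quantile, and the sum without the 20 highest genes), a fit without the trend, a fit to the 2 groups alone, array weights, a replicate block, and leaving out each mouse. Promoters came from RefSeq (GRCm38.p6), and figures used matplotlib 3.10.9 (Python 3.11.15).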

Additional observations from a re-analysis of the deposited data

How the results depend on the processing

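The direction of the Irs1 difference was the same under all 22 alternatives in each comparison, but its call was not. At an adjusted p under 0.05 by limma, the 1 member called for knockdown minus control and for rescue minus control became 0 with no filter, after median-of-ratios scaling, after quantile normalization and with no mean-variance trend. For knockdown minus control it also became 0 with only the 2 groups compared and 2 with a mean of at least 5 TPM, and for rescue minus control 0 after rescaling without the 20 highest genes. Leaving out 1 mouse gave 0 to 1 in both. For knockdown minus control without Ad-shmGULL mouse 1, the gene called was Trib1 (limma adjusted p = 0.0357) and not Irs1. At the study's threshold the 1 member called for rescue minus control became 0 after median-of-ratios scaling, quantile normalization or rescaling without the 20 highest genes, and 0 to 2 with 1 mouse left out. The count stayed at 1 with array weights and without Ad-Ctrl mouse 1, but the gene called was then Igfbp1 and not Irs1. The cause was not tested. No alternative gave a call for rescue minus knockdown at either threshold, nor one for knockdown minus control at the study's threshold.

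Members whose difference lay near 0 changed sign. For knockdown minus control, median-of-ratios scaling gave -0.027 for Insr, -0.055 for Pik3r1 and -0.00081 for Akt2, and quantile normalization gave -0.0036 for Insr and -0.016 for Pik3r1. For rescue minus knockdown, the values for Insr, Akt1 and Akt2 were -0.062, -0.039 and -0.047 after median-of-ratios scaling, -0.046, -0.040 and -0.058 after quantile normalization and -0.035, -0.013 and -0.022 after rescaling without the 20 highest genes, and array weights gave -0.026 for Insr. For rescue minus control, median-of-ratios scaling gave -0.089 for Insr, -0.023 for Pik3r1, -0.048 for Akt2 and -0.15 for Foxo3, quantile normalization -0.050 for Insr, -0.033 for Akt2 and -0.10 for Foxo3, rescaling -0.040 for Foxo3, and array weights 0.0065 for Trib1. With 1 mouse left out, the differences that changed sign ran from -0.16 to 0.00077 for Foxo3 after knockdown, from -0.046 to 0.087 for Insr, -0.0097 to 0.096 for Akt1 and -0.41 to 0.0092 for Igfbp1 from knockdown to rescue, and from -0.26 to 0.057 for Irs2, -0.062 to 0.063 for Foxo1 and -0.048 to 0.016 for Trib1 for rescue minus control.

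Same-numbered mice of different groups had low correlations of their deviations (r of -0.244 to 0.154, 2 of 12 pairings over 0.1). In 4 of 12 pairings a mouse correlated best with its own number. Among these were Ad-shmGULL mice 2, 3 and 4 against the rescue mice (r of 0.154, 0.102 and 0.055). The labels do not say whether equal numbers mark anything shared, and low correlations cannot settle it. With the replicate block, 0 members were called at an adjusted p under 0.05 in any of the 3 comparisons, Irs1 having limma adjusted p of 0.0700 and 0.0622 in knockdown minus control and rescue minus control, and at the study's threshold 0, 0 and 1, with rescue minus knockdown in the middle.

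Counts over all tested genes moved by more than 1.5 times as follows. A mean of at least 5 TPM gave 765, 242 and 708 genes at the study's threshold for the 3 comparisons in the order of the report, against 1253, 492 and 1226 with the filter of 1 TPM. For rescue minus control, median-of-ratios scaling gave 721 and quantile normalization 701. At an adjusted p under 0.05, knockdown minus control (529) had 236 genes with no filter, 33 with only the 2 groups compared and 344 with no trend. Rescue minus control (352) had 9 with no filter, 568 with a mean of at least 5 TPM, 11 after each other scaling, 1693 with only the 2 groups compared, 35 with no trend, 3184 with array weights and 71 with the block. With 1 mouse left out, the adjusted count was 165 (without Ad-Ctrl mouse 3) to 1057 (without Ad-shmGULL mouse 3) for knockdown minus control, moving by over 1.5 times without any mouse but Ad-shmGULL mouse 1 (402), and for rescue minus control 3 (without Ad-Ctrl mouse 3 or 4) to 1068 (without Ad-Ctrl mouse 1), moving that far without any 1 of the 12. For rescue minus knockdown it was 0 to 2, and the count at the study's threshold was 848 without Ad-shmGULL mouse 2. At the study's threshold 69.9%, 77.6% and 91.4% of the genes called in the 3 comparisons were higher, against 51.6%, 60.5% and 66.7% after median-of-ratios scaling. Depth is unknown, and differences smaller than the median shift of all genes cannot be read as changes of a single gene.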
